A study of Mus musculus with 15 samples.

Results

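The nuclear receptors described here are the 35 members of the superfamily that remain once the PPAR receptors, the bile acid receptor FXR and the receptors of the core clock are set aside. They were taken by gene symbol, not by a cut on level or change, from the cecal expression table, which has 45808 rows. The list was drawn up with earlier results of these data known. All 35 were found. Cecal RNA came from WT C57Bl/6 male mice, labelled as 20 weeks old, that were fed normal chow and housed several to a cage. The 7 AIMD mice (antibiotic-induced microbiome depletion) were gavaged every 12 hours for 30 days with ampicillin, vancomycin, neomycin, metronidazole and the antifungal amphotericin B. The 8 vehicle-treated mice were gavaged with water on the same schedule. No label gives the cage or the time of sacrifice of a mouse, so p-values measure the spread between mice, and mice of 1 cage share their microbes. The comparison asks which receptors differ in RNA level in the cecum after this treatment.

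Nuclear receptors are transcription factors that most often act only when a small lipid-soluble molecule sits in their binding pocket. They read steroid and thyroid hormones, vitamins A and D, oxidised cholesterol, bile acids, drugs and other foreign compounds, and some, called orphan receptors, have no settled ligand. Many bind DNA as a pair with a retinoid X receptor at repeats of the sequence AGGTCA, and ligand binding trades corepressor proteins for coactivators. In the intestine they set the identity of absorptive cells, the uptake of calcium, sodium and fat, and the enzymes that detoxify what is eaten.

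Expression was measured as FPKM, reads on a gene per unit of its length and of a depth term for each mouse. Levels can thus be compared between genes as well as between mice. The depth term ran from 0.796 (vehicle replicate 5) to 1.17 (AIMD replicate 6) times the reads on genes, so it was not plain library depth. Reads on genes, recovered from the FPKM, ranged from 8679677 to 18108581 in AIMD mice and from 4372415 to 14405944 in vehicle-treated mice. Of those reads, genes of the mitochondrial chromosome took 4.28% to 10.9% in AIMD mice and 6.92% to 26.2% in vehicle-treated mice. The tissue label held: the 10 large-intestine epithelial markers together summed to between 25352 and 35764 FPKM in AIMD mice and between 22216 and 30733 in vehicle-treated mice, and 2 of the 10 (Krt8 and Vil1) passed the test as higher in AIMD mice. Markers of the wall of the cecum differed between the groups. All 3 tested enteric glia markers (S100b and Gfap among them), 3 of 4 tested enteric neuron markers (Uchl1, Tubb3 and Prph) and 2 of 7 smooth muscle markers (Tagln and Synpo2) were lower in AIMD mice. Over all tested genes 19.4% were higher and 16.7% lower. The 6 enteric neuron markers summed to 2.97 to 5.55 FPKM in AIMD mice and to 6.02 to 88.0 in vehicle-treated mice, with no overlap, the 4 glia markers to 0.469 to 1.24 against 0.864 to 11.9, and the 7 smooth muscle markers to 215 to 817 against 521 to 3040. The highest of each of these sums was that of vehicle replicate 8, which was also the least deep library. Without it the highest vehicle-treated sums were 25.9 FPKM for neuron, 4.74 for glia and 1382 for smooth muscle markers. With sums that low in AIMD mice, the glia markers met the filter for testing, 0.5 FPKM in 7 mice, largely through the vehicle-treated mice. None of these markers was at 0 in every mouse. In whole tissue, fewer cells of a type and less RNA per cell cannot be told apart. Tests were repeated within 2 clusters of mice, of high and low score of 10 clock genes, and with scores of the epithelial, smooth muscle, or neuron and glia markers as covariates, which leave fewer mice or residual degrees of freedom.

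The receptors differed widely in level, from a vehicle mean of 0.00203 FPKM for Rorb to that of Hnf4a. In vehicle-treated mice Hnf4a, at 61.6 ± 16.4 FPKM (SD, n = 8), and Vdr, at 56.8 ± 15.3, stood at the top, and their levels differed by less than their spread. Nr2f6 came next at 24.4 ± 6.80, and then Nr1i2 at 17.6 ± 2.43, Esrra at 14.5 ± 5.37, Nr3c1 at 11.4 ± 3.47, Nr2f2 at 11.0 ± 4.39, Nr3c2 at 9.79 ± 2.51, Rxra at 7.42 ± 2.31 and Thra at 6.31 ± 2.35. Neighbours in that run from Nr2f6 down to Thra differed by no more than the larger of their SDs. In AIMD mice Hnf4a alone led, at 145 ± 29.1 FPKM (SD, n = 7), with Vdr second at a mean of 63.7, and Rxra, Nr3c1 and Nr3c2 each stood higher than Nr2f2. At the other end, 11 receptors did not reach 0.5 FPKM in 7 mice and were not tested: Rxrg, Esr1, Esr2, Esrrb, Esrrg, Nr2f1, Nr4a2, Nr4a3, Rora, Rorb and Pgr.

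**Figure D1:**
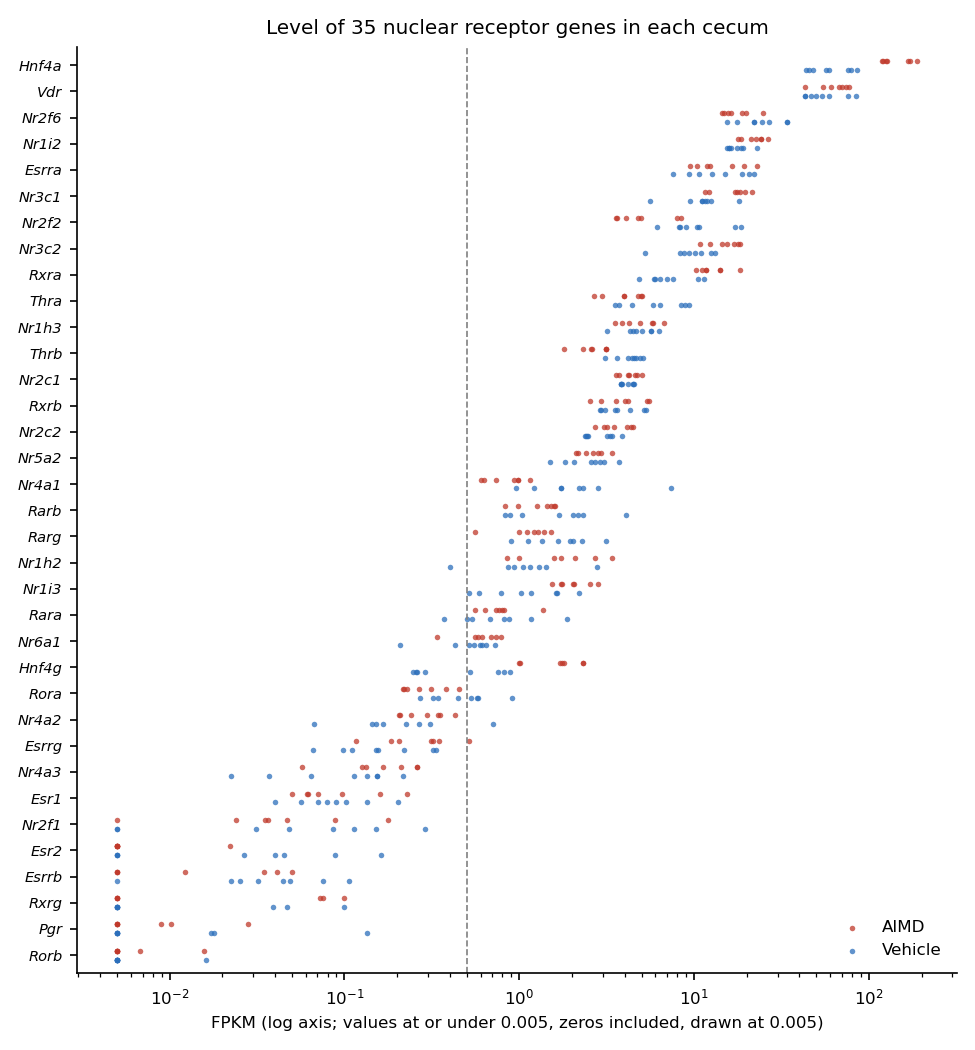
FPKM of the 35 receptor genes in each of 7 AIMD mice (red) and 8 vehicle-treated mice (blue), on a log axis, ordered by the vehicle mean; the dashed line marks 0.5 FPKM. Hnf4a and Vdr lead in both groups, and for Hnf4a and Hnf4g every red point lies to the right of every blue point.

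Of the 24 tested receptors, 10 passed the limma test at an adjusted p of 0.05, with 7 higher in AIMD mice (Hnf4a, Hnf4g, Rxra, Nr1i3, Nr3c2, Nr3c1 and Nr1i2) and 3 lower (Nr4a1, Nr2f2 and Thrb). That is 41.7% of those tested, against 36.1% of all 11983 genes tested, of which 19.4% were higher and 16.7% lower. The share of receptors that changed was thus near that of all genes. The median log2 fold change was 0.06 over the 24 receptors and 0.01 over all tested genes. Hnf4a and Hnf4g were the 2 receptors whose groups did not overlap, both with AIMD mice above, and none lay below. Over all tested genes 8.55% did not overlap, 5.26% with AIMD mice above and 3.3% below. Among the calls, 5 receptors were lower under quantile normalization, beside 7 higher, and 5 under voom on the recovered reads, beside 6 higher. Thra and Nr2f6 were those added.

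**Figure D2:**
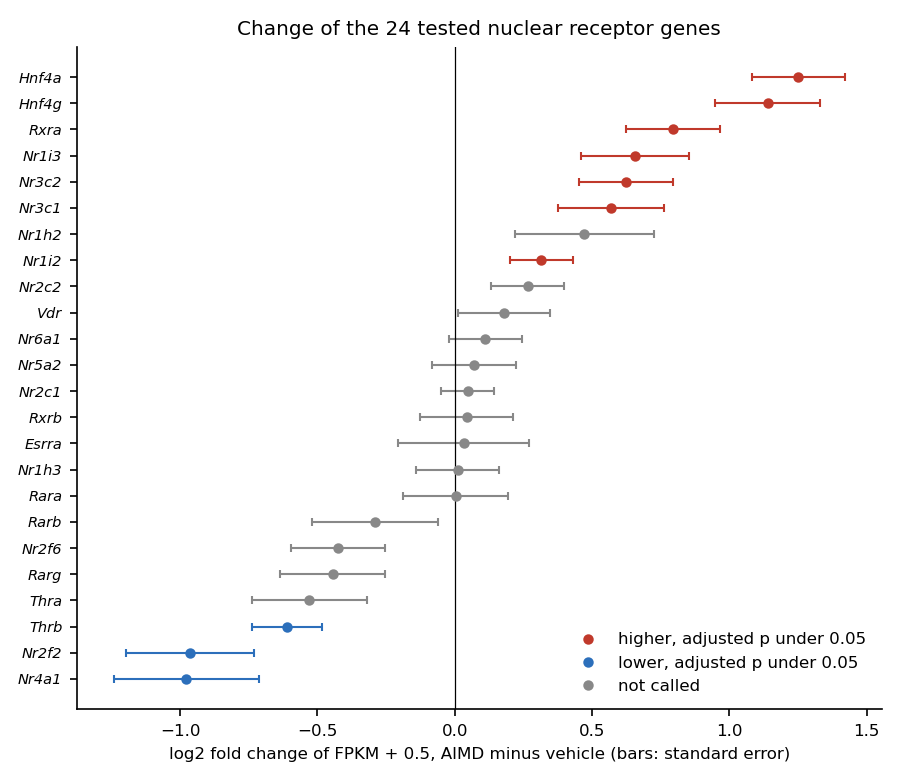
log2 fold change (AIMD minus vehicle, on FPKM + 0.5) of the 24 tested receptors with its standard error; red and blue points passed an adjusted p of 0.05. Hnf4a is at the top at 1.25 and Nr4a1 at the bottom at -0.98.

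The HNF4 receptors had the largest rises of the 24. They are orphan receptors that hold a fatty acid in the pocket, bind DNA as pairs of their own kind and maintain the absorptive program of the gut epithelium. Hnf4a ranged from 43.9 FPKM through a median of 58.0 to 85.9 in vehicle-treated mice and from 118 through 127 to 188 in AIMD mice. Every AIMD mouse was above every vehicle-treated mouse. The mean was 2.36 times as high, a log2 fold change of 1.25 (SE 0.17, limma adjusted p = 4.64e-05). Hnf4g, its relative, was far lower in level and ranged from 0.245 through 0.406 to 0.884 FPKM in vehicle-treated mice and from 1.00 through 1.75 to 2.32 in AIMD mice. Again the groups did not overlap, on 5 to 29 reads per vehicle mouse and 22 to 82 per AIMD mouse. Its log2 fold change was 1.14 (SE 0.19, limma adjusted p = 0.000286). These were the only receptors of the 24 that passed under every alternative run, the epithelial and muscle-wall scores as covariates included. Hnf4g reached 0.5 FPKM in 11 mice, and no vehicle-treated mouse reached 1 FPKM. It thus met the filters for testing through the AIMD mice, where it was high. With the epithelial score, Hnf4a kept a log2 fold change of 0.95 (limma adjusted p = 0.0196) and Hnf4g one of 1.12 (limma adjusted p = 0.0228).

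Hnf4a spans chr2:163506808-163572910 on the plus strand of GRCm38 and has alternative starts, whose reads are pooled in the gene's FPKM. The 250 bases before the start of each transcript listed by RefSeq (GRCm38.p6) are given for Hnf4a, Nr4a1, Nr2f2 and Rxra, which with Hnf4g had the largest log2 fold changes of the 24 in either direction, since their promoters differ in the boxes they hold. Capitals mark AGGTCA (the receptors' own half-site), CCAAT and GGGCGG (a GC box), each on either strand.
Hnf4a, upstream start, chr2:163506607-163506856: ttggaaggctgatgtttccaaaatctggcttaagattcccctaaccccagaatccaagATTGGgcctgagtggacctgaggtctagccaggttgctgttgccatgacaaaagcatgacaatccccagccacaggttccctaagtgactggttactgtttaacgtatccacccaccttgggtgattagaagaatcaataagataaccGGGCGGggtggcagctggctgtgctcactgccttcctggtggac
Hnf4a, downstream start, chr2:163546905-163547154: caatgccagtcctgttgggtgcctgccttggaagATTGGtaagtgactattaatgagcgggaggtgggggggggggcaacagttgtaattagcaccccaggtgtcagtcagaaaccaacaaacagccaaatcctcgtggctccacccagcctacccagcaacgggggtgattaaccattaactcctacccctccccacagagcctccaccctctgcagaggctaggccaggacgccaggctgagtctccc
Rxra, upstream start, chr2:27676951-27677200: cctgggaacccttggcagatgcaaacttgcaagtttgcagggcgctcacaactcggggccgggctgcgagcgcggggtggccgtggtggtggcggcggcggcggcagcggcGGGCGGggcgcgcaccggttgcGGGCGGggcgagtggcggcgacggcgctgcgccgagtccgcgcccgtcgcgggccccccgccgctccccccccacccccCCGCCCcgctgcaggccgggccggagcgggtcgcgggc
Rxra, downstream start, chr2:27709042-27709291: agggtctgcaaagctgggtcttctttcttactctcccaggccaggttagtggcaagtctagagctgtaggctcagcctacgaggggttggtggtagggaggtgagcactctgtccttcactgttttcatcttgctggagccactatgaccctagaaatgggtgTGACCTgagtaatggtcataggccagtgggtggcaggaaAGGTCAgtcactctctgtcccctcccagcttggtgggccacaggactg
Nr2f2, chr7:70366747-70366996, minus strand: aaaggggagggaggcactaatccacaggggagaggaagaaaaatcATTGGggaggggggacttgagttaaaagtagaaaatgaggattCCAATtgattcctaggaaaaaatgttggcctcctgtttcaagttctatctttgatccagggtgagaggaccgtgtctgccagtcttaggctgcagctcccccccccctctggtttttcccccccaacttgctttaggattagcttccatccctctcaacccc
Nr4a1, chr15:101266596-101266845: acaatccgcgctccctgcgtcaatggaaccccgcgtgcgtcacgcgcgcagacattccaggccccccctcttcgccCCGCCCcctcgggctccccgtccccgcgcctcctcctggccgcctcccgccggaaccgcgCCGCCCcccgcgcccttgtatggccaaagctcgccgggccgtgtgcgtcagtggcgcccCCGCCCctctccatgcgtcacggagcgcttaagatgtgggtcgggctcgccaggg
Of these 6 windows, the one before the downstream Rxra start held AGGTCA, once in each orientation, while the one before its upstream start and the Nr4a1 window held 3 GC boxes each. Over the 51 RefSeq promoters matched to 32 of the 35 receptors, 6 held AGGTCA, 17 CCAAT and 22 GGGCGG, against 14.0%, 33.8% and 32.7% of 32851 mouse promoters of the same length. A direct repeat of AGGTCA with 1 base between (AGGTCANAGGTCA) and the box CAAAGTCCA were in none of the 51, against 0.0335% and 0.384% of all promoters. The absence of a word in this window says nothing of the factor that reads it elsewhere.

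Of 13 tested genes known to be driven by HNF4 factors, 5 were higher in AIMD mice and none was lower. Their median log2 fold change was 0.42. The share called, 38.5%, was near the 36.1% of all tested genes (19.4% higher and 16.7% lower). Apob, the scaffold of chylomicrons, rose by a log2 fold change of 1.78 (SE 0.28, limma adjusted p = 0.000173), from 9.34 ± 5.44 FPKM in vehicle-treated mice (SD, n = 8) to 32.4 ± 11.7 in AIMD mice (SD, n = 7). Cdhr5, a cadherin that links microvilli, rose by 1.07 on the log2 scale (SE 0.26, limma adjusted p = 0.00397). With the epithelial score as a covariate Cdhr5 was at 0.46 and no longer called (limma adjusted p = 0.386). Fabp2, which binds fatty acids in the absorptive cell, rose by 0.77 (SE 0.24, limma adjusted p = 0.0200) from an already very high vehicle mean of 5605 FPKM. Fabp2 was not called in the mice of low clock-gene score (0.27, limma adjusted p = 0.553) or with no filter on low values (0.133). The replicate block (limma adjusted p = 0.0518) and the smooth muscle (0.0832), neuron and glia (0.117) and epithelial scores (0.119) also ended that call. Apoa4, another chylomicron protein, rose by 1.67 (SE 0.53, limma adjusted p = 0.0202) with overlapping groups, since vehicle replicate 8 reached 9.95 FPKM, more than the highest AIMD mouse at 4.40. Without that mouse the log2 fold change of Apoa4 was 2.15 (limma adjusted p = 6.64e-05), while in the mice of low clock-gene score it was 1.11 and not called (limma adjusted p = 0.280). Apoa4 was also not called with no filter on low values (limma adjusted p = 0.0507) or by the exact rank-sum test (adjusted p = 0.0574). Apart from vehicle replicate 8 it was low in vehicle-treated mice, so it met the filter for testing largely through the AIMD mice, where it was high. Vil1, of the microvillus core, was the fifth and is also 1 of the epithelial markers above.

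**Figure D3:**
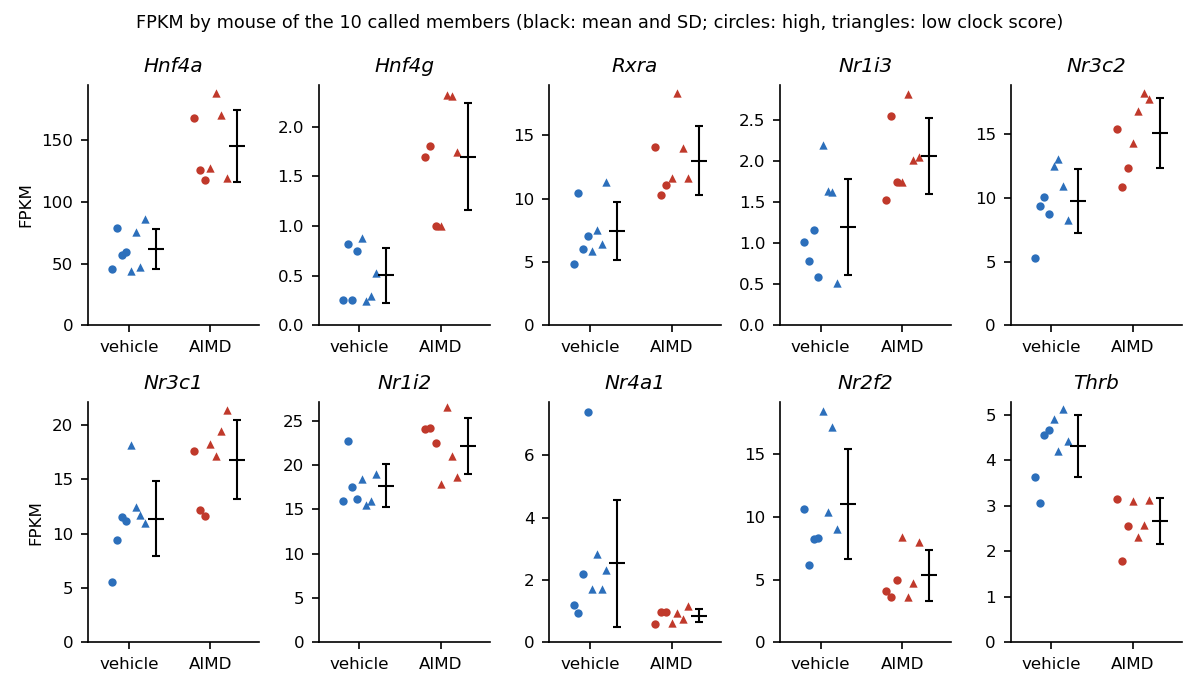
FPKM in each mouse of the 10 receptors that passed the test, with the mean and SD in black; circles are mice with a high and triangles with a low clock-gene score. The groups are apart for Hnf4a (lowest AIMD mouse 118, highest vehicle-treated mouse 85.9) and Hnf4g (1.00 and 0.884), and overlap in the other 8.

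The retinoid X receptors are the partners with which many of the other receptors here bind DNA. Rxra ranged from 4.81 FPKM through a median of 6.71 to 11.3 in vehicle-treated mice and from 10.3 through 11.6 to 18.3 in AIMD mice. In 5 of 7 AIMD mice it lay above the highest vehicle-treated mouse. The log2 fold change was 0.80 (SE 0.17, limma adjusted p = 0.00202), and it was called in the mice of low but not of high clock-gene score (limma adjusted p = 0.0281 and 0.0553) and not with the epithelial score (0.159). Rxrb had means of 4.02 and 3.85 FPKM in AIMD and vehicle-treated mice (log2 fold change 0.04, SE 0.17). Rxrg gave no read in 9 of 15 mice, in each of which a count of 0 allows up to between 0.0688 and 0.253 FPKM at 3 reads.

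The retinoic acid receptors, which pair with RXR and read the active form of vitamin A, did not pass the test. Rara was at 0.811 and 0.853 FPKM on average in AIMD and vehicle-treated mice, Rarb at 1.32 and 1.88, and Rarg at 1.15 and 1.80. Their log2 fold changes were 0.00, -0.29 and -0.44, with standard errors of 0.19, 0.23 and 0.19, so that only that of Rarg was more than 2 standard errors from 0 (limma adjusted p = 0.0780). Rarg passed without vehicle replicate 5, at -0.54 (limma adjusted p = 0.0283). Of the exons of Rarb, 38.4% also lie on the opposite strand under Top2b, whose reads cannot be told apart unless strand was used in counting, which is not stated.

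The genes that supply and remove their ligand did move, in both directions. Of 9 tested, 3 were higher and 4 lower (77.8% called, against 36.1% of all tested genes). Lrat, which stores retinol as its ester, went from 0.585 through a median of 0.654 to 1.37 FPKM in vehicle-treated mice and from 2.45 through 3.81 to 4.96 in AIMD mice, with no overlap (log2 fold change 1.70, SE 0.16, limma adjusted p = 1.28e-06). Rbp2, the retinol carrier of the absorptive cell, rose by 1.26 on the log2 scale (SE 0.21, limma adjusted p = 0.000298), and Aldh1a1, which makes retinoic acid, by 0.79 (SE 0.18, limma adjusted p = 0.00348). Rbp4, Dhrs3 and Aldh1a3 were among the genes that fell.

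Vdr, the vitamin D receptor and the second most abundant receptor, did not differ beyond the spread between mice. It ranged from 43.1 FPKM through a median of 51.6 to 84.0 in vehicle-treated mice and from 43.0 through 67.3 to 77.1 in AIMD mice. The groups overlapped over nearly their whole range, and the log2 fold change was 0.18 (SE 0.17, limma adjusted p = 0.422). Of 7 tested genes of vitamin D handling and response, 1 was higher and 2 were lower. That share, 42.9%, was near the 36.1% called over all tested genes. S100g, the calcium carrier calbindin-D9k and a classic target of the receptor, ranged from 185 through a median of 351 to 889 FPKM in vehicle-treated mice and from 57.6 through 68.7 to 94.4 in AIMD mice. The groups were far apart, at a log2 fold change of -2.26 (SE 0.29, limma adjusted p = 2.38e-05). Cldn2, a claudin that forms a cation pore, fell by 1.17 on the log2 scale without overlap (SE 0.21, limma adjusted p = 0.000480). Cyp2r1, which makes 25-hydroxyvitamin D chiefly in the liver, rose by 0.67 (SE 0.15, limma adjusted p = 0.00311).

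Both thyroid hormone receptors were lower on average in AIMD mice, and 1 of them passed the test. Thrb ranged from 3.07 FPKM through a median of 4.49 to 5.12 in vehicle-treated mice and from 1.79 through 2.59 to 3.14 in AIMD mice. In 4 of 7 AIMD mice it was below the lowest vehicle-treated mouse, and the log2 fold change was -0.61 (SE 0.13, limma adjusted p = 0.00168). Thrb was no longer called in the mice of high clock-gene score (limma adjusted p = 0.0834) or with the neuron and glia (0.0828) or epithelial score (0.146) as a covariate. Thra ranged from 3.53 through 6.10 to 9.36 FPKM in vehicle-treated mice and from 2.67 through 3.98 to 5.06 in AIMD mice. Its log2 fold change was -0.53 (SE 0.21, limma adjusted p = 0.0572), and it passed at a limma adjusted p of 0.0368 under quantile normalization, 0.0371 under voom, 0.0195 with the replicate block, and 0.0249 with the clock-gene covariate, and at 0.0237 to 0.0485 without vehicle replicate 5, 6 or 7. Of the exons of Thra, 5.70% lie under the clock gene Nr1d1 on the opposite strand.

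Among 6 tested genes of thyroid hormone handling and response, Dio1 stood out. It encodes the deiodinase that turns thyroxine into the active hormone, and it ranged from 118 through a median of 156 to 194 FPKM in vehicle-treated mice and from 16.2 through 29.4 to 37.6 in AIMD mice. The lowest vehicle-treated mouse was above the highest AIMD mouse, and the log2 fold change was -2.48 (SE 0.18, limma adjusted p = 6.26e-08). Me1, malic enzyme, fell by 1.34 on the log2 scale, also without overlap (SE 0.21, limma adjusted p = 0.000175). Klf9, a transcription factor induced by thyroid hormone and by glucocorticoids, rose by 1.16 (SE 0.25, limma adjusted p = 0.00221).

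The corticosteroid receptors both rose. Nr3c1, the glucocorticoid receptor, ranged from 5.59 FPKM through a median of 11.3 to 18.1 in vehicle-treated mice and from 11.6 through 17.6 to 21.3 in AIMD mice. In 3 of 7 AIMD mice it exceeded every vehicle-treated mouse, and the log2 fold change was 0.57 (SE 0.19, limma adjusted p = 0.0285). Leaving out AIMD replicate 1, 5, 6 or 7 ended that call (limma adjusted p up to 0.0598), as did taking the mice of high (0.155) or low clock-gene score (0.0623) alone, no filter on low values (0.0553), and the smooth muscle (0.139), neuron and glia (0.136) or epithelial score (0.123) as a covariate. Nr3c2, the mineralocorticoid receptor, through which aldosterone raises sodium uptake in the large intestine, lies at chr8:76899442-77245012 and ranged from 5.25 through 9.73 to 13.1 FPKM in vehicle-treated mice and from 10.9 through 15.4 to 18.3 in AIMD mice. In 5 of 7 AIMD mice it exceeded every vehicle-treated mouse, and it passed at a log2 fold change of 0.62 (SE 0.17, limma adjusted p = 0.00892). Nr3c2 was not called in the mice of high clock-gene score (limma adjusted p = 0.0885) or with the smooth muscle (0.0564), neuron and glia (0.117) or epithelial score (0.157).

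Of 6 tested mineralocorticoid target genes, 3 were higher in AIMD mice, each without overlap, and none was lower. Over all tested genes 19.4% were higher, and 5.26% had AIMD mice above without overlap. Scnn1a, the alpha subunit of the epithelial sodium channel, ranged from 2.81 to 6.25 FPKM in vehicle-treated mice and from 6.56 to 10.4 in AIMD mice (log2 fold change 0.85, SE 0.15, limma adjusted p = 0.000362). Scnn1g, the gamma subunit, was at most 0.542 FPKM in vehicle-treated mice and at least 1.05 in AIMD mice (log2 fold change 1.16, SE 0.18, limma adjusted p = 0.000118). Scnn1g met the filter for testing, 0.5 FPKM in 7 mice, through the AIMD mice, where it was high. Nedd4l, which rose by 0.77 (SE 0.14, limma adjusted p = 0.000535), encodes a ubiquitin ligase that removes that channel from the membrane and so acts against it. Glucocorticoid genes went both ways, with 37.5% called, near the 36.1% of all tested genes. Of 8 tested, 2 rose and 1 fell. Errfi1, a brake on EGF receptor signalling, rose by 0.73 (limma adjusted p = 0.00166). Fkbp5, a chaperone partner of the receptor, rose by 0.49 (limma adjusted p = 0.0486) and was not called without AIMD replicate 5 (0.105). Tsc22d3, a glucocorticoid-induced inhibitor of inflammation, fell by 0.71 (limma adjusted p = 0.00671).

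The sex steroid receptors were near the limit of detection. Esr1 averaged 0.104 FPKM in AIMD against 0.0965 in vehicle-treated mice, with at least 4 reads in each mouse. Esr2 was at 0 in 6 of 7 AIMD mice and 3 of 8 vehicle-treated mice, where 3 reads would be 0.0469 to 0.204 FPKM, and Pgr, the progesterone receptor, was at 0 in 9 of 15 mice. Esr2 gave 1 read in all over the AIMD mice and 11 over the vehicle-treated mice, and Pgr 4 and 8, and neither was tested. Of 5 tested genes related to estrogen and progesterone, 3 were lower in AIMD mice (60.0% called, against 36.1% of all tested genes). Pgrmc1, a membrane haem-binding protein once named for progesterone, fell by 0.71 (limma adjusted p = 0.00211). Greb1, a target of the estrogen receptor, fell by 0.48 (limma adjusted p = 0.00592). Hsd17b2, which inactivates estradiol, fell by 0.44 without overlap (limma adjusted p = 0.0137).

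The receptors for foreign compounds rose modestly. Nr1i2, the pregnane X receptor PXR, ranged from 15.5 FPKM through a median of 16.9 to 22.7 in vehicle-treated mice and from 17.8 through 22.4 to 26.6 in AIMD mice. The groups overlapped widely, and the log2 fold change of 0.31 (SE 0.11, limma adjusted p = 0.0396) was lost under more alternatives than that of any other called receptor. Leaving out any of 10 mice ended it (AIMD replicates 1, 2, 3, 5 and 6 and vehicle replicates 1, 3, 4, 6 and 7, limma adjusted p up to 0.0909), as did voom (0.0512), the high and low clock clusters alone (0.122 and 0.250), and the neuron and glia (0.187) and epithelial scores (0.748). Nr1i3, the constitutive androstane receptor CAR, ranged from 0.518 through 1.09 to 2.19 FPKM in vehicle-treated mice and from 1.53 through 2.02 to 2.82 in AIMD mice. Its log2 fold change was 0.66 (SE 0.20, limma adjusted p = 0.0161), and Nr1i3 was not called in the mice of low clock-gene score (limma adjusted p = 0.241) or with the smooth muscle (0.0962), neuron and glia (0.489) or epithelial score (0.171). Of its annotated exons, 74.9% also lie under genes on the other strand, led by Tomm40l, whose reads cannot be told apart if strand was not used in counting.

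Their target genes changed in opposite directions. Of 14 tested, 4 were higher and 6 lower in AIMD mice, with a median log2 fold change of -0.25. The share called was 71.4%, against 36.1% of all tested genes. Ces2a, a carboxylesterase, ranged from 141 to 394 FPKM in vehicle-treated mice and from 34.7 to 47.6 in AIMD mice (log2 fold change -2.70, SE 0.21, limma adjusted p = 1.48e-07). Ces2c, its close relative, did the reverse, from 2.95 to 17.6 FPKM in vehicle-treated mice to 14.5 to 70.4 in AIMD mice (log2 fold change 2.65, SE 0.36, limma adjusted p = 4.48e-05). Ugt1a1, the enzyme that conjugates bilirubin, rose from at most 3.43 to at least 4.88 FPKM (log2 fold change 2.57, SE 0.31, limma adjusted p = 1.59e-05). Cyp3a44 was at 0.485 to 5.04 FPKM in vehicle-treated mice and at most 0.0388 in AIMD mice (limma adjusted p = 0.000150). Cyp3a44 met the filter for testing through the vehicle-treated mice alone. The Ces2, Cyp3a, Cyp2c and Ugt1a genes have near-identical relatives or shared exons, so how reads were split among them is uncertain.

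The liver X receptors, which sense oxidised cholesterol, did not pass the test. Nr1h3 averaged 4.96 and 4.89 FPKM in AIMD and vehicle-treated mice (log2 fold change 0.01, SE 0.15). Nr1h2 averaged 1.91 and 1.24, at 0.47 (SE 0.25, limma adjusted p = 0.155), and passed at 0.62 (limma adjusted p = 0.0430) without vehicle replicate 2, its highest vehicle-treated mouse. Of 9 tested LXR target genes, 3 fell and 1 rose (44.4% called, against 36.1% of all tested genes). Scd1, the desaturase that makes oleic acid, ranged from 50.5 to 94.9 FPKM in vehicle-treated mice and from 11.8 to 25.9 in AIMD mice (log2 fold change -1.95, SE 0.17, limma adjusted p = 6.33e-07). Abcg5, part of the pump that returns sterols to the lumen, fell by 1.17 (limma adjusted p = 0.00612) and Pltp, a phospholipid transfer protein, by 0.63 (limma adjusted p = 0.00260). Mylip, which marks the LDL receptor for breakdown, rose by 0.56 (limma adjusted p = 0.0351) and was not called without AIMD replicate 6 (0.0771).

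Among the orphan receptors of the COUP-TF and testicular receptor family, Nr2f2 was lower in AIMD mice. Nr2f2 (COUP-TFII), known from veins, lymphatics and the mesenchyme of the gut, ranged from 6.15 FPKM through a median of 9.71 to 18.4 in vehicle-treated mice and from 3.58 through 4.74 to 8.42 in AIMD mice. In 5 of 7 AIMD mice it was below every vehicle-treated mouse, and the log2 fold change was -0.96 (SE 0.23, limma adjusted p = 0.00430). Neuron, glia and some smooth muscle markers were lower in AIMD mice too, while none of the 3 tested endothelial markers passed, with log2 fold changes from -0.29 to -0.19, and fibroblast markers split into 1 higher and 1 lower of 6. With the smooth muscle score as a covariate Nr2f2 kept a log2 fold change of -1.15 (limma adjusted p = 0.00468), and with the neuron and glia score it was -0.92 and no longer called (limma adjusted p = 0.0975), as with the epithelial score at -0.42 (0.389). Of the exons of Nr2f2, 7.46% lie under the opposite-strand gene B130024G19Rik. Its relative Nr2f1 was at most 0.289 FPKM in any mouse.

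Nr2f6 (EAR2), the third most abundant receptor in vehicle-treated mice and the fourth in AIMD mice, ranged from 15.4 FPKM through a median of 23.2 to 33.9 in vehicle-treated mice and from 14.4 through 16.3 to 24.8 in AIMD mice. Its log2 fold change was -0.42 (SE 0.17, limma adjusted p = 0.0624), short of the threshold, and it passed at an adjusted p of 0.0454 under quantile normalization, 0.0362 under voom, and 0.0134 and 0.0238 with the replicate block and the clock-gene covariate in limma. It also passed without vehicle replicate 8, at -0.51 (limma adjusted p = 0.0185), without vehicle replicate 6 (0.0425) or without AIMD replicate 3 (0.0318). Of its exons, 54.4% lie under Ocel1 on the opposite strand. Nr2c1 and Nr2c2, the testicular receptors, averaged 4.29 and 3.63 FPKM in AIMD mice and 4.12 and 2.93 in vehicle-treated mice, and neither passed (log2 fold changes 0.05, SE 0.10, and 0.27, SE 0.13). Of the exons of Nr2c2, 31.2% lie under genes on the opposite strand, led by Mrps25.

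The estrogen-related receptors, which drive mitochondrial genes without a hormone, were represented by Esrra. It ranged from 7.54 FPKM through a median of 13.8 to 21.9 in vehicle-treated mice and from 9.40 through 12.4 to 22.8 in AIMD mice. The groups covered the same range, with a log2 fold change of 0.03 (SE 0.24, limma adjusted p = 0.926). Esrrg averaged 0.286 and 0.182 FPKM in AIMD and vehicle-treated mice, and Esrrb was at most 0.107 in any mouse. Of 10 tested ERR target genes, 3 rose and 2 fell. Over all tested genes 36.1% were called, 19.4% as higher and 16.7% as lower in AIMD mice. Atp5b, the beta subunit of ATP synthase, rose by 1.00 on the log2 scale (limma adjusted p = 0.000755) and Idh3a, of the citric acid cycle, by 0.58 (limma adjusted p = 0.0148), while Pdk4, which shuts pyruvate out of that cycle, fell by 1.28 without overlap (limma adjusted p = 7.12e-05) and Cycs, cytochrome c, by 0.88 (limma adjusted p = 0.0181).

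Of the remaining orphans, Nr5a2 (LRH-1), which acts in intestinal crypts and in local steroid synthesis, averaged 2.64 and 2.54 FPKM in AIMD and vehicle-treated mice (log2 fold change 0.07, SE 0.15). Nr6a1, the germ cell nuclear factor, averaged 0.614 and 0.535, with a log2 fold change of 0.11 (SE 0.13). Rora, a receptor that activates clock genes, averaged 0.296 ± 0.0904 FPKM in AIMD mice (SD, n = 7) and 0.495 ± 0.204 in vehicle-treated mice (SD, n = 8). In 4 of 7 AIMD mice Rora was below the lowest vehicle-treated mouse, yet it fell short of the level for testing. Rorb was at 0 in 12 of 15 mice.

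Nr4a1 (NUR77) belongs to a trio of immediate early receptors that are switched on within minutes by many stimuli, without a ligand. It lies at chr15:101254269-101274795 and ranged from 0.957 FPKM through a median of 1.96 to 7.37 in vehicle-treated mice and from 0.601 through 0.933 to 1.16 in AIMD mice. In 4 of 7 AIMD mice it was below every vehicle-treated mouse, on 13 to 46 reads per AIMD mouse. The log2 fold change was -0.98 (SE 0.26, limma adjusted p = 0.00876), and it was -0.75 without vehicle replicate 4, the mouse at 7.37. Nr4a1 was not called in the mice of high clock-gene score (limma adjusted p = 0.176) or with the neuron and glia (0.222) or epithelial score (0.318). Its relatives Nr4a2 and Nr4a3 were not tested, and their means, 0.296 and 0.173 FPKM in AIMD mice, stood beside vehicle means of 0.254 and 0.112. Other immediate early genes went both ways. Of 19 tested, 5 rose and 6 fell, with a median log2 fold change of -0.43. The share called was 57.9%, against 36.1% of all tested genes. Klf2 fell by 1.11 (limma adjusted p = 0.00166), Junb by 1.09 (limma adjusted p = 0.00322) and Ier2 by 1.05 without overlap (limma adjusted p = 0.000348), while Fosb rose by 1.27, with every AIMD mouse at or above 1.09 FPKM and every vehicle-treated mouse at or below 0.792 (limma adjusted p = 0.000111). For Fosb the AIMD mice, where it was high, met the filter for testing by themselves.

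Among the proteins that receptors recruit, 6.67% of tested coactivators and 42.9% of tested corepressors were called, against 36.1% of all tested genes. Of 15 tested coactivators, only Med1, the Mediator subunit that docks on receptors, passed, with a log2 fold change of 0.32 (SE 0.11, limma adjusted p = 0.0272). Med1 was not called without AIMD replicate 7 (limma adjusted p = 0.0566). Of 7 tested corepressors, Tbl1x rose by 0.58 (limma adjusted p = 0.00339), while its near relative Tbl1xr1 fell by 0.63 (limma adjusted p = 0.00532) and Hdac3, the deacetylase of the same complex, by 0.62 (limma adjusted p = 0.00654). Of 7 tested receptors set aside from the 35, 42.9% were called, all as higher in AIMD mice. They were Pparg (0.75 on the log2 scale, limma adjusted p = 0.00331), the bile acid receptor Nr1h4 (0.57, limma adjusted p = 0.00818) and Ppara (0.49, limma adjusted p = 0.00507).

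**Figure D4:**
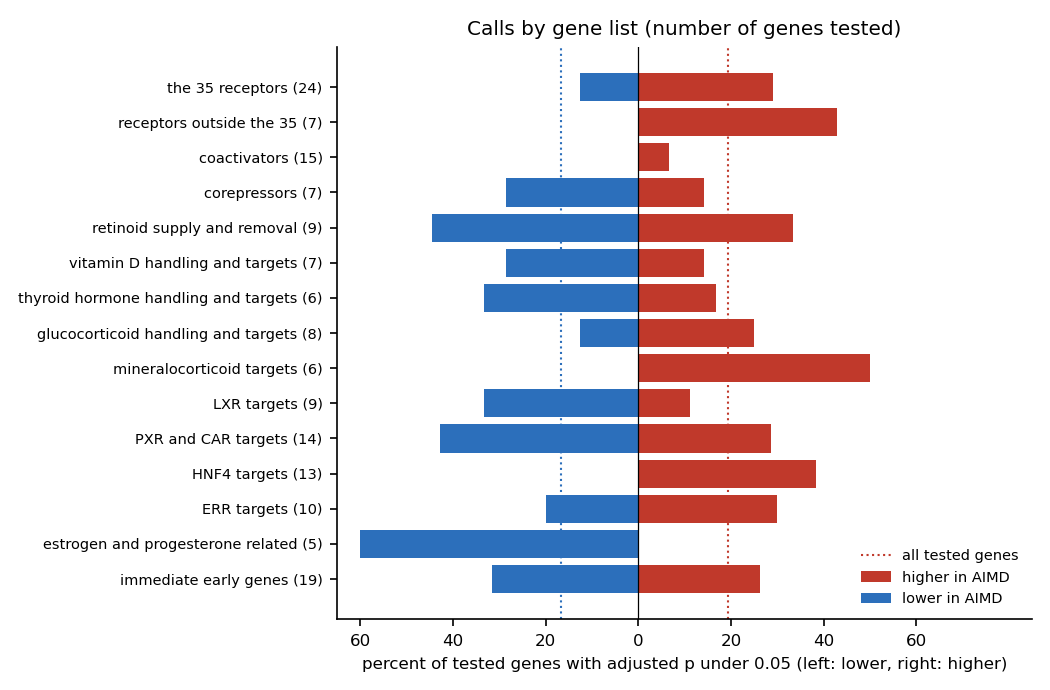
Percent of tested genes called higher (right, red) or lower (left, blue) in AIMD mice for the receptors and for each list of partners and targets, with the number tested in brackets; dotted lines mark all tested genes (19.4% higher, 16.7% lower). Mineralocorticoid and HNF4 target genes have calls on the right only, and PXR and CAR targets have more on the left.

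The mice fall into 2 clusters by a score of 10 clock genes, 3 AIMD and 4 vehicle-treated mice with a high score and 4 and 4 with a low score, separated by a gap of 1.66 on the log2 scale where the next gap is 0.40. Within the high and low clusters 4 and 7 receptors passed, beside 1882 and 2534 of all genes. The number of genes tested within each cluster is not reported here. Hnf4a rose by 1.20 in the high and 1.29 in the low cluster (limma adjusted p = 0.00579 and 0.00824), Hnf4g by 1.00 and 1.26 (0.0273 and 0.0112), and Nr2f2 fell by 0.88 and 1.10 (0.0147 and 0.0314), all by limma. All 10 receptors called over all mice kept their direction in both clusters. Rarb was the receptor whose values differed most between clusters. In the low cluster it was at 2.03 to 4.08 FPKM in vehicle-treated mice and 0.831 to 1.61 in AIMD mice, a log2 fold change of -0.73, and in the high cluster at 0.829 to 1.69 and 0.989 to 1.51 respectively, a log2 fold change of 0.15. The difference between the clusters was 0.88 (SE 0.33) and did not pass (limma interaction term, adjusted p = 0.993). No gene of 11983 passed that test in limma, 536 had an unadjusted p under 0.05, and Rarb was among them at 0.0166.

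**Figure D5:**
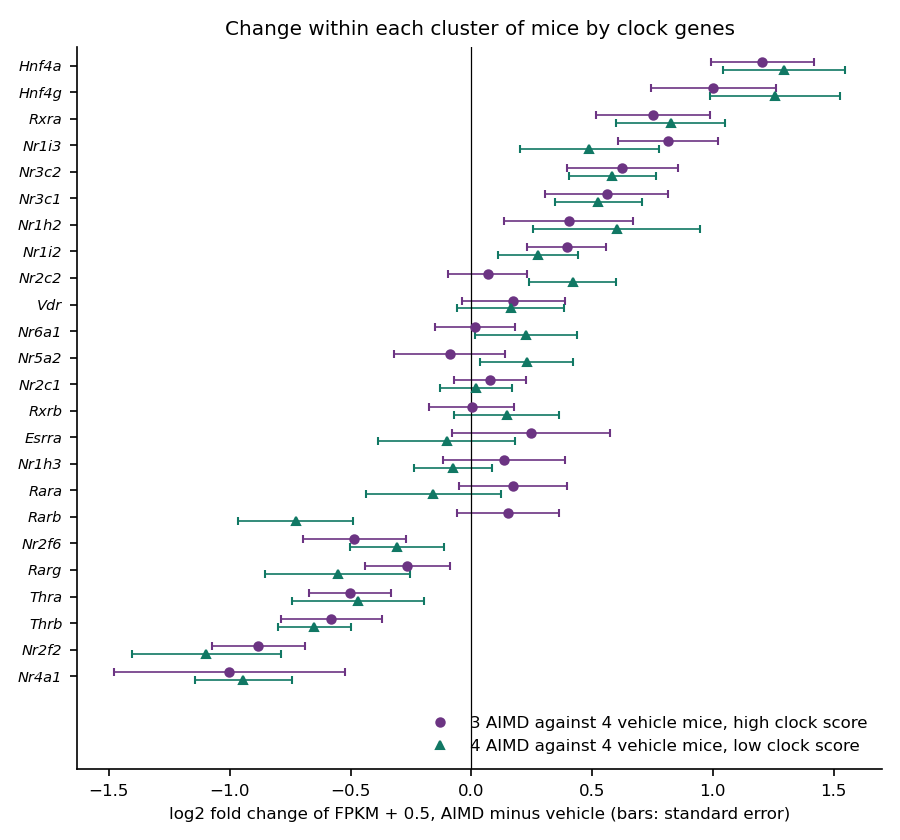
log2 fold change (AIMD minus vehicle) of the 24 tested receptors with its standard error, within the mice of high clock-gene score (circles) and of low score (triangles). Circle and triangle lie on the same side of 0 for all called receptors, and are farthest apart for Rarb, at 0.15 and -0.73.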

How the data were processed

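Cecal RNA of 7 AIMD and 8 vehicle-treated mice was poly-A selected and sequenced as stranded libraries with 50-base single reads. The authors mapped reads with STAR to GRCm38, obtained counts by featureCounts on the GENCODE genes, and deposited 1 FPKM value per gene and mouse. How counts became FPKM, the tool versions, and whether strand was used in counting are not given in the sources used here. The authors' own test was DESeq2 with terms for treatment and for sacrifice time.

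The table has 45808 rows, of which 4 with a repeated symbol were left out. Each mouse was scaled by a median-of-ratios size factor (all close to 1.00), and log2(FPKM + 0.5) was tested with limma 3.58.1 (R 4.3.3, lmFit and eBayes with trend, two-sided) over the 11983 genes with at least 0.5 FPKM in at least 7 mice, with p-values adjusted by Benjamini-Hochberg and called under 0.05. Such fold changes understate the change of low genes. Size factors close to 1.00 mean that the deposited values were already level between mice by that measure. The fit was tested on simulated data first. Whole reads were recovered from FPKM for 24279 genes above 0 (68.7% with the exon length of GENCODE M21, the rest but 1 with another length, within 0.05 of a whole number). These reads gave depths, which limit the precision of low genes, and floors of 3 reads, which cover counting error only. Gene positions are those of GENCODE M21. Promoter sequences are RefSeq's.

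The members and lists were chosen with earlier results of these data known. Full values are given for members that passed or averaged at least 5 FPKM, and up to 4 genes of each list are named by the size of their change among those that passed, while genes named without values were added after seeing the data. Values of 2 list genes are not reported here. Replicate numbers were checked and do not pair the mice. Mice were also compared within 2 clusters of a clock-gene score, split at its largest gap. The alternatives were other scalings, pseudocounts, filters, thresholds and tests, a replicate block, a clock-gene covariate and each mouse left out. Scores of smooth muscle, neuron and glia, and epithelial markers as covariates, and the cluster interaction term, were added after seeing the data. Python 3.11.15 with numpy 2.4.6, pandas 2.3.3 and matplotlib 3.10.9 did the rest.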

Additional observations from a re-analysis of the deposited data

Results flagged for a closer look

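A gap test for a mouse far from its group, run on 48 groups (24 tested receptors in 2 groups), marked 4 values, and chance marks about 1 in 20 groups. Nr4a1 stood at 7.37 FPKM in vehicle replicate 4, with the nearest vehicle-treated mouse at 2.83. Rarb stood at 4.08 FPKM in vehicle replicate 7, nearest 2.30. Nr1h2 stood at 2.79 FPKM in vehicle replicate 2, nearest 1.43. Rara stood at 1.37 FPKM in AIMD replicate 5, nearest 0.821. Without these mice the log2 fold changes were -0.75 for Nr4a1, which was still called, -0.14 for Rarb, 0.62 for Nr1h2, which was then called (limma adjusted p = 0.0430), and -0.08 for Rara.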

How the results depend on the processing

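Over the 15 alternatives that refit each receptor beside the leave-one-out fits, the 10 called receptors gave 150 values, of which 121 stayed called, 29 were no longer called, and none reversed; over leave-one-out fits 136 of 150 stayed called. All genes called, 4321, became 1882 and 2534 within the high and low clock clusters, 2480 at a threshold of 0.01, and 2705 and 1371 with the neuron and glia and the epithelial scores as covariates. Receptors called, 10, became 4 within the high cluster, 5 with the neuron and glia score and 2 with the epithelial score. Receptors called higher, 7, became 3 and 4 within the clusters, 4 at the threshold of 0.01, 4 with each of the smooth muscle and the neuron and glia scores, and 2 with the epithelial score. Receptors called lower, 3, became 5 under quantile normalization, voom and the clock-gene covariate, 1 within the high cluster, 1 with the neuron and glia score, and 0 with the epithelial score, and ranged from 3 to 5 with each mouse left out. List genes called, 64, became 42 within the low cluster and 29 with the epithelial score. The clusters and covariates leave fewer mice or residual degrees of freedom, and these scores follow treatment, so a lost call there is no measure of size; the cause was not tested.

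The replicate block called 12 receptors, 5 of them lower. Same-numbered mice had correlations from -0.35 to 0.43 of their deviations, and 1 of 7 AIMD mice correlated best with its own number, so the numbers were taken as names.

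Receptors with log2 fold changes near 0 reversed without being called. Rara was -0.0024 under quantile normalization, -0.0064 at a pseudocount of 1, -0.14 with the epithelial score and -0.16 in the low cluster. Esrra was -0.042 with the replicate block, -0.36 and -0.33 with the neuron and glia and epithelial scores, and -0.10 in the low cluster. Nr1h3 was -0.023 under quantile normalization, -0.0086 under voom, -0.0031 with the replicate block, -0.10 and -0.16 with those scores and -0.076 in the low cluster. Nr5a2 was -0.038, -0.043 and -0.17 with the smooth muscle, neuron and glia, and epithelial scores and -0.089 in the high cluster. Rxrb was -0.23 and -0.16 with the last pair of scores, Rarb 0.29 and 0.10, and Rarb 0.15 in the high cluster. Rarg was 0.065 with the neuron and glia score, Nr1h2 -0.11 with the epithelial score and Nr2c1 -0.024 with the smooth muscle score. Synpo2, a smooth muscle marker, and Gfap, which is part of that score, were 0.26 and 0.12 with the neuron and glia score. With each mouse left out, Rxrb ranged from -0.030 to 0.14, Rara from -0.084 to 0.13, Esrra from -0.085 to 0.13, Nr1h3 from -0.066 to 0.082 and Nr5a2 from -0.013 to 0.14. Rara passed with the neuron and glia score (0.68, limma adjusted p = 0.0491), an alternative chosen after seeing the data.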
